A study of Mus musculus with 8 samples.

Results

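The Galnt genes encode the polypeptide N-acetylgalactosaminyltransferases, Golgi enzymes that start mucin-type O-glycosylation by moving N-acetylgalactosamine (GalNAc) from the donor UDP-GalNAc onto a serine or threonine of a protein on its way out of the cell. 10 members of the family, Galnt1, Galnt2, Galnt3, Galnt4, Galnt5, Galnt6, Galnt7, Galnt10, Galnt11 and Galnt12, were followed among the 48526 genes of the count table. They were found by their symbols in the deposited expression table and joined to the counts by Ensembl identifier. The set was taken up because Galnt5 was much lower in lobes labelled ACreb3l2 than in WT lobes, so the comparison of these groups is given for the members as a description, without a test. All 10 members passed the filter on low counts (a mean above 20 normalized counts), as did 15580 genes in all.

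RNA was sequenced from neuro-intermediate lobes of the mouse pituitary, 8 libraries in 4 groups of 2: WT, ACreb3l2, AXBP1 and ACreb3l2/AXBP1. Per the labels each library is a pool of 5 lobes of strain C57B6, and per the methods the mice were males 3 months of age. ACreb3l2 and AXBP1 are transgenes for dominant negative forms of the bZIP transcription factors Creb3l2 and XBP1, in which an acidic stretch replaces the DNA-binding region; the last group carries both. Each is driven by a POMC promoter of the rat, thus in melanotropes within a tissue that also holds other cells, and 2 lines were selected per transgene, described by the study as alike in behaviour, of which 1 is shown, so in these libraries an effect of the line and an effect of the transgene cannot be told apart. The labels name melanotropes as the cell type, but whole lobes were taken, and fewer cells of a type and less RNA per cell cannot be told apart in such samples.

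Nothing in the labels tells whether the pools of a group were raised or prepared apart, and the p-values below measure the spread between these pools. With 2 libraries against 2, an exact permutation test of a single gene cannot go below p = 0.333, so tests were run across all genes in edgeR with Benjamini-Hochberg adjustment, and a gene is said to have been called when its adjusted p was under 0.05. Total counts per library ran from 28256086 to 37988912. Pomc took from 6.91% to 14.6% of the counts, with the lowest share in ACreb3l2/AXBP1 replicate 2 and the highest in WT replicate 2. All 7 markers of melanotropes had counts in all groups. Creb3l2 ran from 26775 to 28682 normalized counts in the WT and ACreb3l2 libraries and from 14044 to 22833 in the libraries labelled with AXBP1. Xbp1 lay between 9155 and 9205 with ACreb3l2 alone and between 11877 and 17639 in the other 6 libraries. Each transgene carries coding sequence of its factor from the leucine zipper on, so that its RNA could be counted with the gene, but Creb3l2 was not higher in ACreb3l2 (mean 26994) than in WT (mean 28439), and Xbp1 in AXBP1 (mean 13149) and in ACreb3l2/AXBP1 (mean 15247) overlapped WT (mean 12656). The study measured the transgene RNAs by RT-qPCR in lobes of these lines, which is not analysed here. It reports that the selected lines had more transgene RNA than RNA of the endogenous factor. The counts do not show the transgenes, and every direction below is between libraries as labelled.

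A cell's O-glycan output depends on several layers. The Galnt enzymes differ in the proteins they prefer: some act on bare peptides, and others mainly add GalNAc beside one already in place. Further enzymes extend the sugar, and sugar nucleotide enzymes and Golgi transporters supply the donors. POMC, the hormone precursor that melanotropes make in bulk, is itself O-glycosylated in its N-terminal part.

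The regions just before the transcription starts are shown first, because both transgenes act on factors that bind DNA at sites built around short cores. RefSeq promoters of build GRCm38.p6 (250 bases before to 50 after a start) were found for 6 of the 10 members, 8 promoters in all. The letters searched on both strands were ACGT, the core that bZIP factors of this type bind; TGACGTG, a longer form that contains it; CCACG, the ending of the ER stress element, which overlaps ACGT where it reads CCACGT; and that element whole, CCAAT and CCACG with 9 bases between. Promoters are shown for Galnt5 (chr2:57997905-57998204, plus strand), the member by which the set was chosen, for Galnt3 (chr2:66124744-66125043, minus strand), which was called against WT in ACreb3l2/AXBP1, and for Uap1 (chr1:170174915-170175214, minus strand) and Pgm3 (chr9:86571793-86572092, minus strand), donor genes described further on. Capitals mark the 3 shorter motifs on either strand.
Galnt5: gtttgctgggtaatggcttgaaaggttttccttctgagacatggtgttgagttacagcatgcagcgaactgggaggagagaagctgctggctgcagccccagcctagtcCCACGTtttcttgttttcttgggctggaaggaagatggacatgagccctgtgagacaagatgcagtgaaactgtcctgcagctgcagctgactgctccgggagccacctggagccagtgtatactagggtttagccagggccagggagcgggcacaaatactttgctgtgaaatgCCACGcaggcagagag
Galnt3: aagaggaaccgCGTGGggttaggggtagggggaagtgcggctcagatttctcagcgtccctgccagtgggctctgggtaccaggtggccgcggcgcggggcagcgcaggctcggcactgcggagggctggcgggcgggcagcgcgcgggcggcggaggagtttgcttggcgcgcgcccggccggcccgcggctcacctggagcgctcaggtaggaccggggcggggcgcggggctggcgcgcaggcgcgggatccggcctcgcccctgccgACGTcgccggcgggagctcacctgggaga
Uap1: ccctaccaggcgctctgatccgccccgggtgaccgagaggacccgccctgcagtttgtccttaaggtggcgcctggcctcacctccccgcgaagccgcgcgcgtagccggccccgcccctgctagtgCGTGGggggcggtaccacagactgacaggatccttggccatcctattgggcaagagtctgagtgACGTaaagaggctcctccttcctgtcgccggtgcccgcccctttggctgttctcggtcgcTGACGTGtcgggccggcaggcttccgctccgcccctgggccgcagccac
Pgm3: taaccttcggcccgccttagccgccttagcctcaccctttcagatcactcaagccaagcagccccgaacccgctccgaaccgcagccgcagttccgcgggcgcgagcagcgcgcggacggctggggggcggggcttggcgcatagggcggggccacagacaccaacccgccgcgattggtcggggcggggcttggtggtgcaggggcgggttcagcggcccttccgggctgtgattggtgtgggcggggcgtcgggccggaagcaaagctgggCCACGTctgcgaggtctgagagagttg

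The Galnt5 promoter held ACGT once, 139 bases before the start, within the letters CCACGT, and a second CCACG from base 35 after it. The Galnt3 promoter held ACGT once, from base 22 after the start, and CCACG once, 239 bases before it. ACGT stood in 6 of the 8 member promoters (of Galnt3, Galnt5, Galnt6, Galnt10 and Galnt11) and CCACG in 4 of 8 (of the same genes without Galnt11). Of all 32851 promoters 30.9% held ACGT and 32.8% held CCACG. The longer TGACGTG was in no member promoter and in 2.01% of all promoters, and the whole ER stress element was in none and in 0.119%. For the list of donor genes described further on, 12 promoters of 10 genes were found. Of these 5 held ACGT, 7 held CCACG, 1 held TGACGTG and 0 held the whole element. The 1 with TGACGTG was that of Uap1, from base 2 after its start. These are matches of letters only, and binding was not measured in these libraries.

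Levels of the members differed widely and are compared per length, in FPKM (fragments per kilobase of transcript, scaled to the mapped fragments of the library) as deposited. In WT the order was Galnt2 (66.9 and 58.9 FPKM in the 2 libraries), Galnt1 (38.9 and 35.1), Galnt11 (27.2 and 25.7), Galnt12 (18.6 and 17.9), Galnt10 (8.88 and 7.35), Galnt7 (7.13 and 6.62), Galnt3 (3.75 and 3.53), Galnt4 (2.58 and 2.13), Galnt5 (0.312 and 0.50) and Galnt6 (0.226 and 0.179). In WT no neighbours in this order overlapped between libraries. In all 3 transgenic groups Galnt3 and Galnt4 overlapped, and in ACreb3l2/AXBP1 their means changed places. Galnt5 stood above Galnt6 in WT and AXBP1 and below it in both groups with ACreb3l2.

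**Figure D1:**
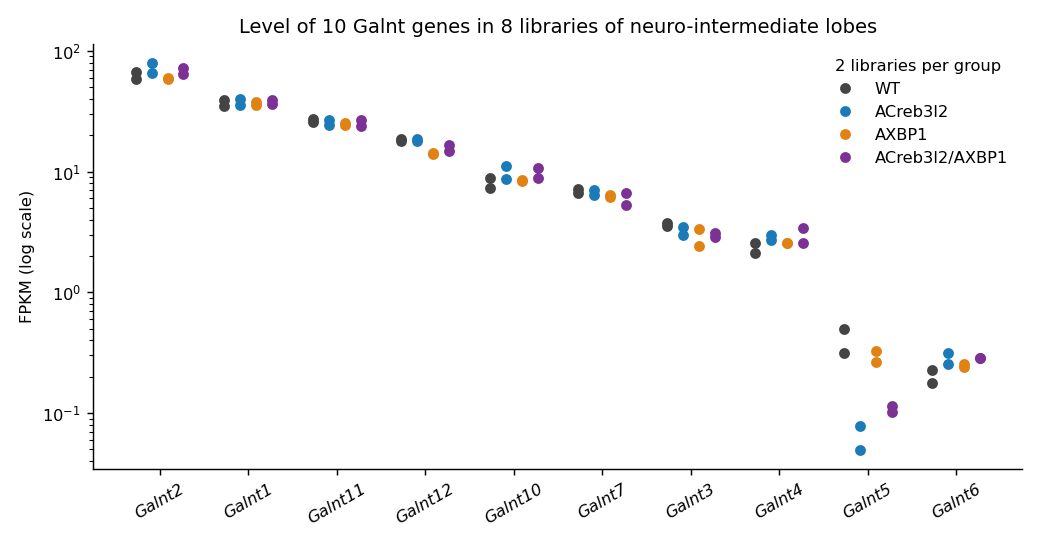
Level of each of the 10 members (FPKM, log axis) in the 8 libraries, as 2 points for each group, with genes ordered by their WT mean. From Galnt2 down to Galnt4 the groups lie close together, whereas Galnt5 in the ACreb3l2 and ACreb3l2/AXBP1 libraries (0.0497 to 0.115 FPKM) lies below its WT and AXBP1 libraries (0.266 to 0.50 FPKM).

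The 4 most abundant members carried most of the summed level. Galnt2 held from 37.3% to 41.8% of the summed FPKM of the 10 members over the 8 libraries. Galnt1 held from 21.2% to 24.1%, Galnt11 from 14.2% to 16.3% and Galnt12 from 8.34% to 11.3%. Galnt5 held from 0.0263% to 0.317%, and so made up a very small part of the family's sum. That sum ran from 154 to 189 FPKM, with both extremes in transgenic libraries and the WT libraries at 158 and 175.

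The place of Galnt2 at the top, and of Galnt11 above Galnt12, rests on the FPKM table alone. Galnt2 (ENSMUSG00000089704, protein coding, mm10 chromosome 8, 124231391 to 124345724, plus strand) had only 81 to 140 raw counts per library. In the GENCODE M21 annotation the gene Gm20388 runs through it on the same strand and shares 3854 of its 4282 exonic bases, or 90.0%. Gm20388 itself had 0 counts in every library. Counts per kilobase of exon, scaled to library depth in the way of FPKM, came to 0.734 for Galnt2 in WT against 62.9 FPKM, a ratio of 0.0117, where the median ratio over all tested genes was 0.699. Only 0.0516% of tested genes had a lower ratio. The change of Galnt2 is therefore read from the FPKM values. By depth-scaled counts per kilobase the WT order was Galnt1 (21.2), Galnt12 (19.8), Galnt11 (11.3), Galnt10 (6.78), Galnt7 (5.01), Galnt3 (2.90), Galnt4 (2.66), Galnt2 (0.734), Galnt5 (0.436) and Galnt6 (0.233). Galnt12 thus also stood above Galnt11 there and held 27.9% of the members' sum.

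**Figure D2:**
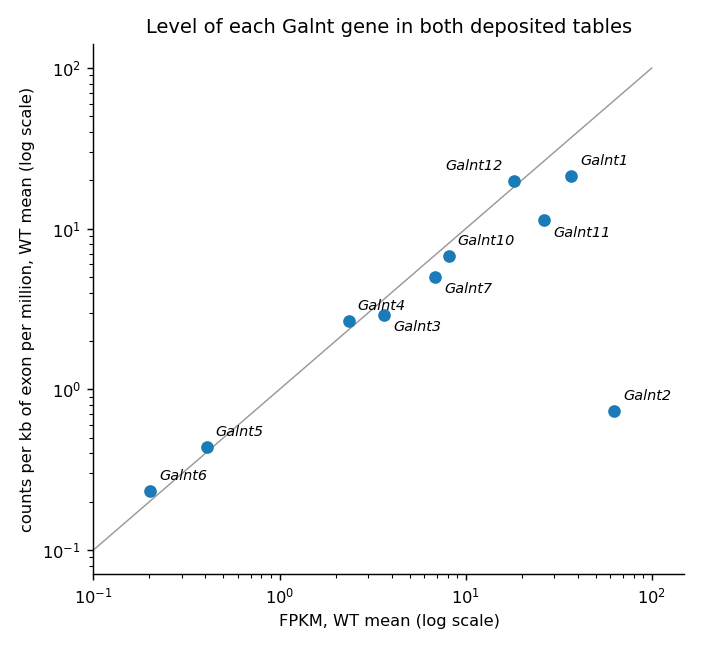
Mean WT level of each member in the FPKM table (horizontal) against depth-scaled counts per kilobase of exon from the count table (vertical), both on log axes, with the line of equal values. The other 9 members have ratios of counts to FPKM from 0.425 to 1.15, and Galnt2 lies far below the line, at 62.9 FPKM and 0.734 depth-scaled counts per kilobase.

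Galnt5 was the member with the largest difference in every comparison of groups but AXBP1 against WT. There Galnt3 (-0.43) and Galnt6 (0.41) differed more than Galnt5 (-0.32) on the log2 scale. Galnt5 (ENSMUSG00000026828, protein coding, mm10 chromosome 2, 57997884 to 58045860, plus strand) encodes a family member that is abundant in few tissues. It had 50.5 and 84.0 normalized counts in WT and 48.4 and 58.9 in AXBP1. It had 6.88 and 11.4 normalized counts in ACreb3l2 and 16.8 and 18.6 in ACreb3l2/AXBP1. Every library with ACreb3l2 lay below every library without it, and the pairs with and without AXBP1 overlapped only where ACreb3l2 was absent. These values rest on few reads, from 8 to 77 raw counts per library. On the log2 scale Galnt5 stood at -2.89 in ACreb3l2 relative to WT (SE 0.385), which is the difference it was chosen by. Of the members 1 of 10 was called in that comparison, lower, where 2.50% of all tested genes were called lower. Nothing is read from that count.

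The comparison of ACreb3l2/AXBP1 with AXBP1 asked what ACreb3l2 added where AXBP1 was present, and it shares no library with the comparison that chose Galnt5. This comparison is not wholly apart from that choice, since edgeR took the spread from all 8 libraries. Galnt5 also passed the filter through the groups without ACreb3l2, with mean normalized counts of 67.2 in WT and 53.7 in AXBP1. Its means were 9.15 in ACreb3l2 and 17.7 in ACreb3l2/AXBP1. In ACreb3l2/AXBP1 against AXBP1 the log2 change of Galnt5 was -1.59 (SE 0.350), with an unadjusted p of 0.00109 and an edgeR adjusted p of 0.0936 over all genes, so the difference was not called. It was negative in all 18 alternatives (-1.72 to -0.92) but passed the threshold in only 1 of them, the fit without a filter on low counts (adjusted p = 0.000479 there, up to 0.549 in the others). In this comparison 0 of 10 members were called in edgeR, 1 (Galnt5) had an unadjusted p under 0.05, and 0 were called by DESeq2. Of all genes 0.623% were called and 11.1% had an unadjusted p under 0.05. Between these groups 3 members did not overlap on the lower side (Galnt5, Galnt7 and Galnt11) and 1 on the higher (Galnt10), against 24.0% and 22.7% of all genes.

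The other comparisons share WT or ACreb3l2 libraries with the one that chose Galnt5, so its values there are a description, without a test. The log2 difference was -1.91 in ACreb3l2/AXBP1 relative to WT (SE 0.344) and -1.51 without WT replicate 2. It was -2.57 in ACreb3l2 relative to AXBP1 (SE 0.392) and ran from -2.93 to -2.21 when any ACreb3l2 or AXBP1 library was left out. AXBP1 alone left Galnt5 at -0.32 from WT (SE 0.309), with overlapping libraries, and at 0.082 without WT replicate 2. ACreb3l2/AXBP1 stood at 0.98 relative to ACreb3l2 (SE 0.436), with no overlap between the libraries, and at 0.64 without ACreb3l2 replicate 1. The interaction, which is the change in ACreb3l2/AXBP1 less the sum of the changes in both other transgenic groups, was 1.31 for Galnt5 (SE 0.535). On the log2(FPKM + 0.1) scale these differences were smaller except in AXBP1 relative to WT, which stood at -0.33. The others were -1.25 in ACreb3l2/AXBP1 relative to WT, -1.27 in ACreb3l2 relative to AXBP1, 0.35 in ACreb3l2/AXBP1 relative to ACreb3l2 and 0.69 for the interaction.

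**Figure D3:**
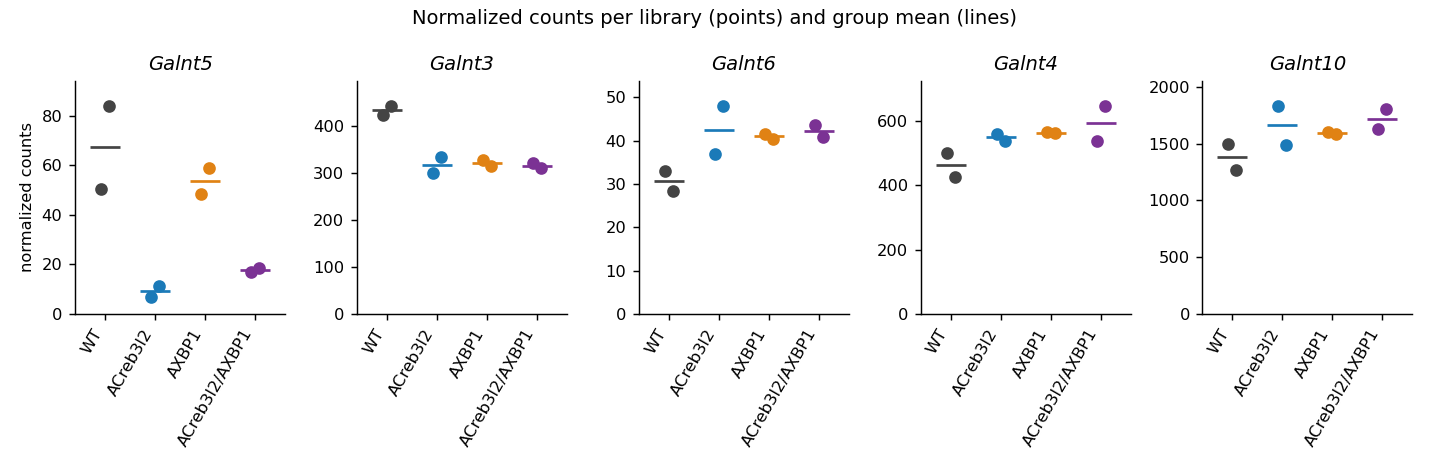
Normalized counts of 5 members in each library (points) with the mean of the group (line), all axes from 0. Galnt5 is low in both groups with ACreb3l2 (6.88 to 18.6), Galnt3 is lower in all transgenic groups (301 to 335) than in WT (424 and 443), and Galnt6, Galnt4 and Galnt10 have their lowest library in WT.

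Ermn, the gene of the oligodendrocyte protein ermin, lies on the strand opposite to Galnt5 and shares 237 of its 4462 exonic bases (5.31%). Ermn had 22.3 and 15.3 normalized counts (WT), 85.1 and 32.0 (ACreb3l2), 42.5 and 11.5 (AXBP1) and 68.2 and 45.3 (ACreb3l2/AXBP1). Both libraries of each group with ACreb3l2 lay above both libraries of WT and of AXBP1, except that ACreb3l2 replicate 2 lay below AXBP1 replicate 1. The study's methods name a stranded mRNA kit, but whether counting used strand is not given in the sources used here. Its part in the result was not tested. Markers of other cells were followed too: the summed level of 7 pituicyte and astroglial markers was 21812 to 29233 normalized counts (WT), 29735 to 34171 (ACreb3l2), 27987 to 32889 (AXBP1) and 30472 to 37723 (ACreb3l2/AXBP1), with no marker at 0. Of these 7 markers 0 were called in the comparison of ACreb3l2/AXBP1 with AXBP1 by edgeR, and 2 had an unadjusted p under 0.05, as had 11.1% of all genes. In ACreb3l2/AXBP1 against WT 1 was called higher (Aqp4, the water channel of astroglia), as were 477 of all 15580 genes. The summed level of 7 melanotrope markers was 3726810 to 5517780 (WT), 3676010 to 4102070 (ACreb3l2), 3402430 to 3986950 (AXBP1) and 2211080 to 3000750 (ACreb3l2/AXBP1), with no marker at 0. Of the melanotrope markers 2 were called lower against WT in ACreb3l2/AXBP1, Tbx19 (the factor Tpit) and Scg2 (a granule protein), where 6.99% of all genes were called lower. The median log2 difference in ACreb3l2/AXBP1 against WT was -0.66 over the melanotrope markers, 0.45 over the pituicyte and astroglial markers and 0.56 over 7 endothelial markers. In ACreb3l2/AXBP1 against WT 7 of 7 endothelial markers had a positive log2 difference, and 0 were called by edgeR. An unadjusted p under 0.05 was reached by 1 of these markers, and by 29.7% of all genes. The summed level of the endothelial markers was 5368 to 6703 (WT), 4440 to 8041 (ACreb3l2), 7258 to 9128 (AXBP1) and 7653 to 9433 (ACreb3l2/AXBP1). Of 7 stem and marginal cell markers 1 was called higher in that comparison, Sox2 (a stem cell factor), while 4 lay below 0, among them Krt8 and Krt18 (epithelial keratins) at -0.82 and -0.77, which were not called (edgeR adjusted p = 0.0672 and 0.0779). The median over the list was -0.05. Of the macrophage, the fibroblast and pericyte and the anterior lobe markers edgeR called 0 there, with medians of -0.03, 0.25 and -0.09. An unadjusted p under 0.05 was reached by 0 of them, against 29.7% of all genes. Relative to AXBP1 the 6 anterior lobe markers had a median of 0.69 in ACreb3l2/AXBP1 (5 of 6 higher) and 0.76 in ACreb3l2 (6 of 6 higher). Of these markers 2 had an unadjusted p under 0.05 in each (11.1% and 9.49% of all genes) and 0 were called by edgeR. Their summed level was 149442 to 227162 (WT), 118281 to 154158 (ACreb3l2), 76554.5 to 78205 (AXBP1) and 99788.5 to 202321 (ACreb3l2/AXBP1). The fibroblast and pericyte markers had a median of -0.36 in ACreb3l2 relative to AXBP1 (7 of 7 lower, 0 called by edgeR). Of them 3 had an unadjusted p under 0.05, as had 9.49% of all genes. There the median was -0.44 over the endothelial markers (7 of 7 lower). It was 0.18 over the macrophage and 0.08 over the stem and marginal cell markers (7 of 7 higher in each). Over the pituicyte and astroglial and the melanotrope markers it was 0.20 and 0.10 (5 of 7 higher in each). The part of these other cells in the changes of the Galnt genes and of the donor genes below was not tested.

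Galnt3, an enzyme known for protecting the hormone FGF23 from cleavage by O-glycosylation, gave a different pattern. Galnt3 (ENSMUSG00000026994, protein coding, mm10 chromosome 2, 66082766 to 66124994, minus strand) had 424 and 443 normalized counts (WT), 301 and 335 (ACreb3l2), 328 and 315 (AXBP1) and 321 and 311 (ACreb3l2/AXBP1). Both WT libraries lay above all 6 transgenic libraries, and the transgenic groups overlapped one another. The log2 change against WT was -0.46 in ACreb3l2/AXBP1 (SE 0.118, edgeR adjusted p = 0.0395), which was called. It was -0.43 in AXBP1 (SE 0.119, unadjusted p = 0.00468, edgeR adjusted p = 0.474), which was not. As a description, the difference in ACreb3l2 was -0.45 (SE 0.118). Between transgenic groups the log2 changes of Galnt3 were -0.02 (ACreb3l2 against AXBP1), -0.01 (ACreb3l2/AXBP1 against ACreb3l2) and -0.03 (ACreb3l2/AXBP1 against AXBP1), all smaller than their SE of 0.120, 0.119 and 0.120.

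The call of Galnt3 was kept in 7 of 18 alternatives and lost in 11, of which 1 was the fit with the replicate number as a block, and the change was negative in all 18 (-0.49 to -0.28, adjusted p from 0.0322 to 0.392). It was also lost with library size alone (adjusted p = 0.116), with DESeq2 (0.0580), with FPKM values in limma (0.392) and with only the compared groups in the fit (0.0934). It was lost without either WT library (0.0555 and 0.163 without replicates 1 and 2), either AXBP1 library (0.0773 and 0.0795) or either ACreb3l2/AXBP1 library (0.0683 and 0.227). In FPKM the WT libraries also lay above all transgenic libraries, but only narrowly, with ACreb3l2 replicate 1 at 3.46 FPKM and WT replicate 2 at 3.53 FPKM.

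Apart from Galnt5 and Galnt3 no member was called in any comparison. Galnt6, the closest relative of Galnt3 in the family, was the least abundant member in WT and had 33.0 and 28.4 normalized counts there, with 37.0 and 48.0 (ACreb3l2), 41.5 and 40.4 (AXBP1) and 43.5 and 40.8 (ACreb3l2/AXBP1) elsewhere. Its log2 difference was positive against WT throughout, at 0.41 for AXBP1 (SE 0.271; adjusted p = 0.598 in edgeR) and 0.45 for ACreb3l2/AXBP1 (SE 0.267; adjusted p = 0.281 in edgeR). Its counts were the lowest after Galnt5, from 28.4 to 48.0.

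Among the enzymes that prefer peptides already carrying GalNAc, Galnt4, Galnt7, Galnt10 and Galnt12, none passed the test. Galnt4 had 500 and 424 normalized counts (WT), 561 and 537 (ACreb3l2), 564 and 561 (AXBP1) and 538 and 646 (ACreb3l2/AXBP1), so that no transgenic library overlapped WT. Its log2 difference from WT was 0.36 with both transgenes (SE 0.126; unadjusted p = 0.0175, adjusted p = 0.0943 in edgeR) and 0.28 with AXBP1 (SE 0.126; adjusted p = 0.50 in edgeR), neither called, and the former was 0.48 without ACreb3l2/AXBP1 replicate 1 (adjusted p = 0.0498) but 0.21 without ACreb3l2/AXBP1 replicate 2 (adjusted p = 0.532). Galnt4 shares 420 of its 5089 exonic bases with Poc1b on the same strand. Galnt10 had 1493 and 1264 normalized counts (WT), 1831 and 1492 (ACreb3l2), 1599 and 1588 (AXBP1) and 1631 and 1804 (ACreb3l2/AXBP1). All transgenic libraries but ACreb3l2 replicate 2 lay above both WT libraries. It differed from WT by 0.32 with both transgenes (SE 0.119; adjusted p = 0.113 in edgeR) and by 0.21 with AXBP1 (SE 0.119; adjusted p = 0.561 in edgeR). The former was 0.20 without WT replicate 2 (adjusted p = 0.466), and 0.48 with library size alone (adjusted p = 0.0613), where the median of all genes was 0.17.

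Galnt12 had 1552 and 1547 normalized counts (WT), 1469 and 1591 (ACreb3l2), 1337 and 1362 (AXBP1) and 1512 and 1210 (ACreb3l2/AXBP1). Its effect of AXBP1 averaged over both backgrounds was -0.18 (SE 0.077, unadjusted p = 0.0389, edgeR adjusted p = 0.300), which was not called. On the log2(FPKM + 0.1) scale it was -0.29 (SE 0.069, unadjusted p = 0.00201, limma adjusted p = 0.0507), where the median of all genes was -0.11. In AXBP1 against WT the FPKM difference of Galnt12 was -0.36 (SE 0.098, limma adjusted p = 0.0901), where the median of all genes was -0.16. Galnt7 ran from 765 to 989 normalized counts over the 8 libraries, and its log2 changes lay between -0.19 and 0.11 in the 6 comparisons of groups.

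Of the broadly acting enzymes Galnt1, Galnt2 and Galnt11 none was called. Galnt1, which starts O-glycans on many secreted proteins, ran from 3742 to 4355 normalized counts, from WT replicate 2 to ACreb3l2/AXBP1 replicate 2, with log2 changes between -0.11 and 0.11 in the 6 comparisons of groups. Galnt11, known to act on receptors of the LDL receptor family and on Notch, ran from 2416 to 2774, with log2 changes between -0.13 and 0.041. Its log2 change in ACreb3l2/AXBP1 against AXBP1 was -0.12 (SE 0.075, edgeR adjusted p = 0.610). Galnt2, read from FPKM, was at 66.9 and 58.9 FPKM (WT), 79.0 and 65.6 (ACreb3l2), 59.1 and 59.6 (AXBP1) and 64.7 and 72.7 (ACreb3l2/AXBP1). On the log2(FPKM + 0.1) scale its difference was 0.21 in ACreb3l2/AXBP1 relative to AXBP1 (SE 0.115, limma adjusted p = 0.416), where the median of all genes was 0.12. In ACreb3l2 relative to AXBP1 it was 0.28 (SE 0.115, unadjusted p = 0.0363, limma adjusted p = 0.201), where the median of all genes was 0.18.

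Over the 10 members the median log2 change was -0.08 in ACreb3l2/AXBP1 against WT, 0.07 in AXBP1 against WT and -0.02 in ACreb3l2/AXBP1 against AXBP1. Over all tested genes it was 0.012, 0.0014 and -0.00014 in the same order. Calls are counted over the 9 members other than Galnt5. In ACreb3l2/AXBP1 against WT 1 of 9 was called (Galnt3, lower) and 3 had an unadjusted p under 0.05 (Galnt3, Galnt4 and Galnt10), where 10.1% of all genes were called, 6.99% called lower and 29.7% below 0.05 unadjusted. That background depends on the scaling: 1089 genes were called lower and 477 higher, but 546 lower and 1104 higher with library size alone, and 1006 lower and 114 higher with FPKM in limma. In AXBP1 against WT edgeR called 0 of 9 (2 with an unadjusted p under 0.05, Galnt3 and Galnt4), and of all 15580 genes 0% (9.97% unadjusted). In ACreb3l2 against AXBP1 edgeR called 0 of 9, with 0 at an unadjusted p under 0.05, where 0.719% of all genes were called (9.49% unadjusted). In the interaction 0 of 9 were called and 1 had an unadjusted p under 0.05 (Galnt3), with 0% of all genes called (2.48% unadjusted). For the effect of AXBP1 averaged over both backgrounds 0 of 9 were called by edgeR and 2 had an unadjusted p under 0.05 (Galnt3 and Galnt12), where 0.0321% of all genes were called (15.7% unadjusted). In ACreb3l2/AXBP1 against ACreb3l2 edgeR called 0 of 9, with 0 at an unadjusted p under 0.05 and 0% of all genes called (7.14% unadjusted). DESeq2 called 0 of these 9 members in every comparison.

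**Figure D4:**
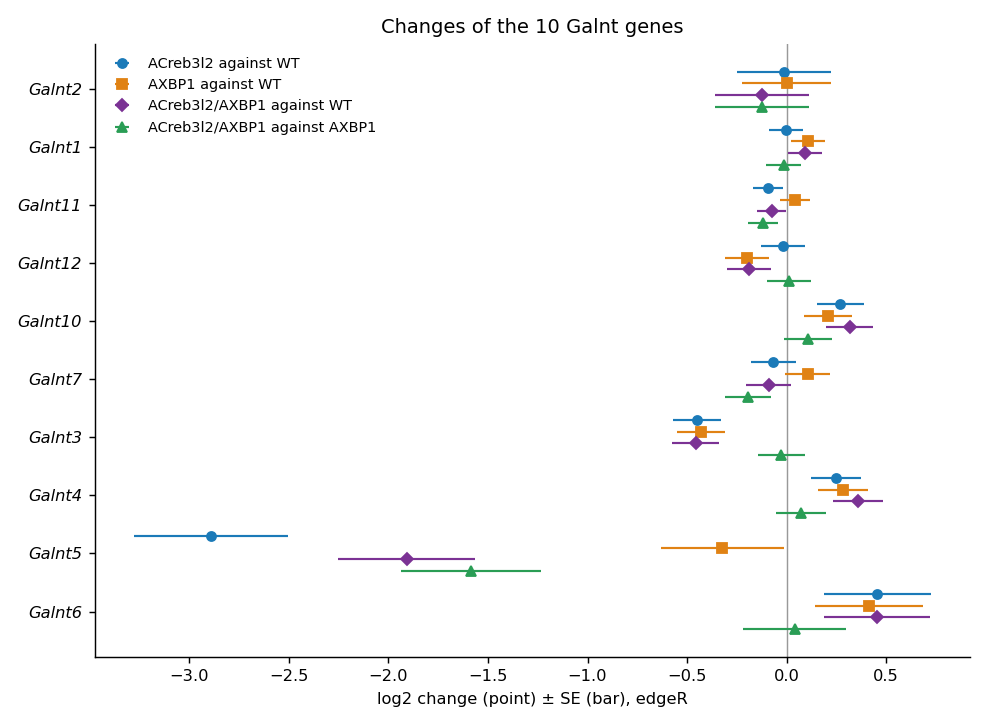
Log2 change of each member (point) with its SE from edgeR (bar) in 4 comparisons, genes ordered by WT level. Galnt5 lies far to the left wherever ACreb3l2 is compared with its absence (-2.89, -1.91 and -1.59), Galnt3 lies near -0.45 against WT and near 0 between ACreb3l2/AXBP1 and AXBP1, and the other members lie between -0.20 and 0.45.

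Other genes of the family and of the pathway were followed from lists. These were chosen with earlier results of these data known, so the counts called in them are a description. Of 9 further GalNAc-transferase genes 8 were tested, and edgeR called 0 of them in every comparison (at most 3 passed 0.05 unadjusted, in ACreb3l2/AXBP1 against WT, where 29.7% of all genes did). Of 16 genes for enzymes that build and extend the O-glycan, such as the core galactosyltransferase and the sialyltransferases, 13 were tested and 0 were called in every comparison (at most 4 with an unadjusted p under 0.05). Of 12 genes for secreted and membrane proteins that carry O-glycans 11 were tested, and 1 was called lower, in a comparison where 6.99% of all genes were. This was Vldlr, a lipoprotein receptor, which stood at -0.78 on the log2 scale in ACreb3l2/AXBP1 against WT (SE 0.154; adjusted p = 0.0166 in edgeR), which was lost without ACreb3l2/AXBP1 replicate 2 (-0.60, adjusted p = 0.119).

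The list in which genes were called together was that of the supply of sugar donors, the enzymes and Golgi transporters for UDP-GalNAc, UDP-GlcNAc and CMP-sialic acid. This list too was chosen with earlier results of these data known, so its counts are a description. Of its 14 genes followed here 13 were tested. In ACreb3l2/AXBP1 against WT 8 were called, all lower, with a median log2 change of -0.43 over the list. Of all genes 6.99% were called lower there and the median was 0.012. In the same comparison the median was -0.66 over the 7 melanotrope markers, of which 2 were called lower. In ACreb3l2 against WT, given as a description, the median was -0.47 and 11 of the 13 lay below 0. In AXBP1 against WT 0 were called by edgeR, with a median of -0.15, and 5 had an unadjusted p under 0.05, as had 9.97% of all genes. These comparisons share the WT libraries and are given side by side.

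The called genes of that list with larger changes in ACreb3l2/AXBP1 against WT belong to the sialic acid branch, to transport and to the making of the donors. Nans, the sialic acid synthase, stood at -1.11 on the log2 scale (SE 0.145, edgeR adjusted p = 0.00314). Cmas, which activates sialic acid to its CMP form, had -0.82 (SE 0.101, edgeR adjusted p = 0.00244). Slc35a2, the Golgi carrier of UDP-galactose, had -0.76 (SE 0.106, edgeR adjusted p = 0.00331). Uap1, the pyrophosphorylase that forms UDP-GlcNAc and UDP-GalNAc, had -0.72 (SE 0.083, edgeR adjusted p = 0.00177). All 4 were called in all 18 alternatives. Of the other 4 called genes, named after their values were seen, Pgm3 was called in 18 of 18 alternatives, Gfpt1 in 17, Gne in 12 (log2 change from -0.56 to -0.27) and Gnpnat1 in 6 (-0.41 to -0.21). Nans shares 29.6% of its exonic bases with Trim14 and Gnpnat1 81.9% with Styx, both on the opposite strand, so their values are less certain if counting did not use strand.

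In the comparison of ACreb3l2/AXBP1 with AXBP1 2 of the 13 supply genes were called, both lower, where 0.616% of all genes were called lower. The median of the list was -0.26 (11 of 13 lower, 8 with an unadjusted p under 0.05 in edgeR, as had 11.1% of all genes). Over the 7 melanotrope markers it was also -0.26 (7 of 7 lower, 0 called by edgeR and 0 with an unadjusted p under 0.05), and over all genes -0.00014. Uap1 had 1902 and 2040 normalized counts in AXBP1 and 1405 and 1305 in ACreb3l2/AXBP1. Its log2 change was -0.54 (SE 0.083, edgeR adjusted p = 0.0202). Pgm3, the mutase a step before it, had 2131 and 2004 normalized counts in AXBP1 and 1474 and 1408 in ACreb3l2/AXBP1, and changed by -0.52 on the log2 scale (SE 0.084; adjusted p = 0.0258 in edgeR). Pgm3 shares 28.3% of its exonic bases with Dop1a on the opposite strand. Uap1 was also called lower in ACreb3l2 against AXBP1, at -0.45 (SE 0.083, edgeR adjusted p = 0.0430), the 1 gene of the list called there, where 0.680% of all genes were called lower. In that comparison the median of the list was -0.20 (12 of 13 lower, 6 with an unadjusted p under 0.05 in edgeR, as had 9.49% of all genes). Over the 7 melanotrope markers it was 0.10 (5 of 7 higher).

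Against AXBP1 in ACreb3l2/AXBP1, Uap1 was called in 12 of 18 alternatives and Pgm3 in 9 of 18, and the call of Uap1 in ACreb3l2 against AXBP1 was kept in 8 of 18. All 3 calls were lost with library size alone (adjusted p = 0.0907, 0.108 and 0.0664 in that order), with FPKM in limma (0.179, 0.217 and 0.189) and with the replicate number as a block. Without AXBP1 replicate 1, AXBP1 replicate 2 or ACreb3l2/AXBP1 replicate 2, Uap1 came to adjusted p-values of 0.165, 0.284 and 0.219 and Pgm3 to 0.338, 0.201 and 0.239 against AXBP1 in ACreb3l2/AXBP1. Pgm3 was also lost without ACreb3l2/AXBP1 replicate 1 (0.0570), ACreb3l2 replicate 1 (0.0545) or ACreb3l2 replicate 2 (0.0563). The call of Uap1 in ACreb3l2 against AXBP1 was also lost with only the compared groups in the fit (0.0509), without robust estimation (0.0511), and without either ACreb3l2 library (0.241 and 0.157), either AXBP1 library (0.247 and 0.450) or ACreb3l2/AXBP1 replicate 2 (0.0506).

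**Figure D5:**
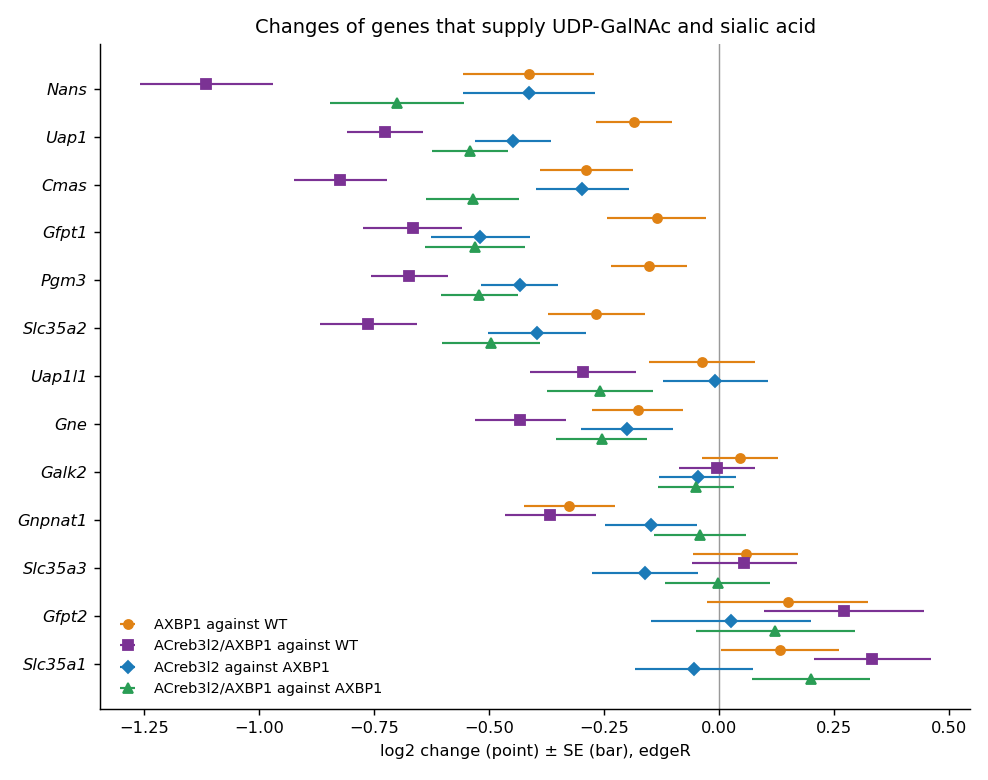
Log2 change (point) with its SE from edgeR (bar) of 13 tested genes for the supply of UDP-GalNAc and sialic acid, in 4 comparisons, ordered by the change in ACreb3l2/AXBP1 against AXBP1. Nans and Cmas lie farthest left in ACreb3l2/AXBP1 against WT (-1.11 and -0.82), and Galk2 stays between -0.05 and 0.05.

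Of all tested genes the 5 whose log2 CPM followed those of Galnt5 most closely over the 8 libraries were Mmgt2 (a membrane magnesium transporter, Pearson r = 0.987), Pofut1 (protein O-fucosyltransferase, 0.987), Vkorc1 (the vitamin K epoxide reductase, 0.987), Golga5 (a golgin, 0.986) and Slc37a3 (a sugar phosphate exchanger family member, 0.983). The 8 points share 4 groups, so this likeness describes the order of the groups. Vkorc1, for example, had 239 and 278 normalized counts (WT), 101 and 109 (ACreb3l2), 240 and 227 (AXBP1) and 146 and 138 (ACreb3l2/AXBP1). As for Galnt5, the ACreb3l2 libraries were lowest and the ACreb3l2/AXBP1 libraries stood between them and the rest.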

How the data were processed

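The authors deposited a table of raw read counts per Ensembl gene and a table of FPKM values for the same 8 libraries. Per the study's methods reads were trimmed (Trimmomatic), aligned to mm10 (Tophat) and counted per gene (HTSeq-count), and the submitters' processing notes name HTSeq and DESeq. The deposited FPKM values were estimated by the authors, with cufflinks named in a list of software. The annotation release and the strand setting are not given in the sources used here. The labels state ribosomal depletion, whereas the methods name a stranded mRNA kit. Coordinates are those of GENCODE M21, which matched the FPKM table for all 10 members.

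Here, genes with a mean above 20 counts after median-ratio scaling were tested in edgeR 4.0.16 (R 4.3.3; TMM, robust quasi-likelihood test, a mean per group, all 8 libraries, 4 residual degrees of freedom), with p-values adjusted over all 15580 genes. Normalized counts were obtained by dividing by TMM-adjusted library sizes and multiplying by their mean. FPKM values were tested in limma 3.58.1 as log2(FPKM + 0.1), which understates changes of low genes, and DESeq2 1.42.0 served as an alternative. Precision is limited by 2 libraries per group and, for Galnt5, Galnt6 and Galnt2, by fewer than 150 counts per library. Likeness used log2 CPM with a prior count of 2.

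All 10 members are described, each with its values or their range, and from each pathway list the called genes, at most 4 per comparison by size of change. The members and lists were chosen with earlier results of these data known. 1 further gene of the sugar donor list is not reported here and enters no count.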

Additional observations from a re-analysis of the deposited data

How the results depend on the processing

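Among the 9 members other than Galnt5, the number called in ACreb3l2/AXBP1 against WT went from 1 to 0 with library size alone, DESeq2, FPKM with limma, only the compared groups in the fit, or the replicate block, and was 0 to 1 without a library. It was 0 under every alternative in the other comparisons that share libraries with the choice of Galnt5. In ACreb3l2/AXBP1 against AXBP1 the number called of all 10 members went from 0 to 1 (Galnt5) without the filter. Of 1420 member values under alternatives 107 had the opposite sign, none of a called change, and all from main values no larger than 0.32. Galnt3 in ACreb3l2 against AXBP1 reversed to 0.17 with FPKM in limma and ran from -0.092 to 0.058 without a library, and Galnt5 in AXBP1 against WT ran from -0.65 to 0.082 without a library. With library size alone the median of all genes was 0.17 in ACreb3l2/AXBP1 against WT (0.012 in the reported fit), relative to which Galnt5 stood at -1.91 and Galnt3 at -0.47. With FPKM in limma it was 0.18 in ACreb3l2 against AXBP1 (0.0031 in the reported fit), relative to which Galnt5 stood at -1.45 and Galnt3 at -0.01. With a pseudocount of 1 in place of 0.1 the log2 FPKM difference of Galnt5 between ACreb3l2/AXBP1 and AXBP1 was -0.22 in place of -0.92. By counts per kilobase Galnt2 held 1.03% of the members' summed WT level in place of 37.8%. Of the 5 genes most like Galnt5 by Pearson 1 (Mmgt2) was among the 5 by Spearman.

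Counts of all called genes moved more. Without the filter they were 1455 in ACreb3l2 against WT (473 in the reported fit), 628 in AXBP1 against WT (0), 3209 in ACreb3l2/AXBP1 against WT (1566), 730 in ACreb3l2 against AXBP1 (112), 513 in ACreb3l2/AXBP1 against ACreb3l2 (0), 755 in ACreb3l2/AXBP1 against AXBP1 (97), 126 in the interaction (0) and 1277 for AXBP1 averaged over ACreb3l2 (5). With DESeq2 they were 755, 79, 2074, 260, 41, 287, 4 and 366 in that order. With FPKM in limma they were 284 in ACreb3l2 against WT, 6 in AXBP1 against WT, 45 in ACreb3l2 against AXBP1, 37 in ACreb3l2/AXBP1 against AXBP1 and 598 for averaged AXBP1. With library size alone they were 304 in ACreb3l2 against WT, 55 in ACreb3l2/AXBP1 against AXBP1 and 3 for averaged AXBP1, which was also 3 without robust estimation. With only the compared groups they were 275 in ACreb3l2 against WT, 2 in AXBP1 against WT and 654 in ACreb3l2/AXBP1 against WT, and filterByExpr gave 1 in ACreb3l2/AXBP1 against ACreb3l2. In ACreb3l2 against AXBP1 106 genes were lower and 6 higher, 213 and 47 with DESeq2, 29 and 16 with FPKM in limma and 422 and 308 without the filter. The causes were not tested.

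Deviations of same-numbered libraries correlated at -0.197 to 0.089 over 6 pairs of groups. The labels do not tell whether libraries of the same number were prepared together, and these correlations cannot settle it. With the replicate block the calls of Galnt3 in ACreb3l2/AXBP1 against WT (adjusted p = 0.0621), of Uap1 and Pgm3 in ACreb3l2/AXBP1 against AXBP1 (0.0562 and 0.0636) and of Uap1 in ACreb3l2 against AXBP1 (0.0947) were lost, and 3 genes were called in AXBP1 against WT and 58 in ACreb3l2/AXBP1 against AXBP1. With the ACreb3l2/AXBP1 numbers crossed in the block, an alternative chosen after seeing the data, counts were 2 in AXBP1 against WT, 3 in ACreb3l2/AXBP1 against ACreb3l2, 162 in ACreb3l2/AXBP1 against AXBP1, 1 in the interaction and 57 for averaged AXBP1. Leaving out a library gave 153 to 618 genes in ACreb3l2 against WT, 0 to 9 in AXBP1 against WT, 218 to 2084 in ACreb3l2/AXBP1 against WT, 18 to 152 in ACreb3l2 against AXBP1, 0 to 11 in ACreb3l2/AXBP1 against ACreb3l2, 7 to 155 in ACreb3l2/AXBP1 against AXBP1, 0 to 2 in the interaction and 0 to 233 for averaged AXBP1.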

Other observations

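A further family member outside the set, Galnt13, named after its values were seen, stood close to Galnt2 in the FPKM table. It was at 58.6 and 53.5 FPKM (WT), 48.5 and 45.6 (ACreb3l2), 42.2 and 51.8 (AXBP1) and 43.6 and 41.4 (ACreb3l2/AXBP1). In FPKM both WT libraries lay above all 6 transgenic libraries, whereas in normalized counts AXBP1 replicate 2 (4181) lay above WT replicate 2 (3980). Its log2 change in counts was -0.22 in ACreb3l2/AXBP1 against WT (SE 0.093, unadjusted p = 0.0406, edgeR adjusted p = 0.151), which was not called. Depth-scaled counts per kilobase of exon came to 15.9 for Galnt13 in WT, a ratio to FPKM of 0.283, so its place beside Galnt1 depends on the table used.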
